A study of Arabidopsis thaliana with 12 samples.

Results

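The genes described here are 41 Arabidopsis thaliana genes of starch synthesis and breakdown, out of 33602 genes counted in shoots of seedlings treated with inhibitors of the TOR kinase. They were chosen by function, as the enzymes that make ADP-glucose, build, branch and debranch the glucan chains, phosphorylate and dephosphorylate the granule, and break it down to maltose and glucose, together with the maltose exporter and a starch-targeting protein. AT1G42430 and AT3G55760, which carry no symbol in the reference, are members too and are given no role here. Of the 41 genes, 40 were among the 17933 genes that passed the filter on low counts, and AMY1 was not, with 4 reads in KU63794 replicate 2 and 3 reads in mock replicate 1 as its only counts.

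All seedlings were of the Col-0 accession, were grown on plates in continuous light until 4 days after germination and were then moved for 8 h to plates with AZD8055 at 2 µM, KU63794 at 20 µM, TORIN1 at 10 µM or the solvent DMSO alone (mock). The treatment protocol spells KU63794 with its last digits in another order. RNA was taken from whole shoots and selected for poly(A), and each group had 3 libraries. The labels do not say whether the replicates were separate cultures, so the p-values measure the spread between these libraries, which may be technical. The 3 compounds were given at different doses, so no order of potency can be read from them.

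Leaf chloroplasts store part of the carbon fixed in the light as starch, a granule of branched and linear glucose chains, and break it down when photosynthesis stops. ADP-glucose pyrophosphorylase makes the glucose donor, starch synthases extend the chains, and branching and debranching enzymes set their pattern. Breakdown begins with phosphorylation of the granule surface by glucan, water dikinases, after which beta-amylases release maltose, and the maltose leaves the plastid and is used in the cytosol. TOR is a protein kinase that promotes growth when sugars and other nutrients are plentiful. AZD8055, KU63794 and TORIN1 block its active site.

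Sequences are shown for 6 members, each as the 250 bases before the annotated start of the gene in RefSeq's TAIR10.1 assembly, read 5′ to 3′ on the gene's own strand. APL3, GBSS1 and ISA3 are shown because they were among the members with the largest increases, AT1G42430 because it was the member that fell with every inhibitor, and SBE2.1 and PHS1 because their windows hold a G-box, the motif found in the most members. Windows that contain part of another annotated gene were not chosen. The windows are chr4:18259297-18259546 on the plus strand, chr1:11923867-11924116 on the minus strand, chr4:5783659-5783908 on the plus strand, chr1:15891031-15891280 on the plus strand, chr2:15263961-15264210 on the plus strand and chr3:11252557-11252806 on the plus strand. Capitals mark matches to the motifs searched, on either strand.
APL3: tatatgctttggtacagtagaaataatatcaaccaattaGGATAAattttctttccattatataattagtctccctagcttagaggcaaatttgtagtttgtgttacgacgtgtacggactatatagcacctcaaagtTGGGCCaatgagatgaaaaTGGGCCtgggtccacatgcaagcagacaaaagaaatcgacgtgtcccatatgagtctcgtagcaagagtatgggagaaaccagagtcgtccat
GBSS1: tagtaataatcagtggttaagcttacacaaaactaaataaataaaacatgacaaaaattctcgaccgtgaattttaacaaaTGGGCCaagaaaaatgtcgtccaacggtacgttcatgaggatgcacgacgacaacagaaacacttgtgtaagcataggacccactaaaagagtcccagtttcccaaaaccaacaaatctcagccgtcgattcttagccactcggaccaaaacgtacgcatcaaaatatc
ISA3: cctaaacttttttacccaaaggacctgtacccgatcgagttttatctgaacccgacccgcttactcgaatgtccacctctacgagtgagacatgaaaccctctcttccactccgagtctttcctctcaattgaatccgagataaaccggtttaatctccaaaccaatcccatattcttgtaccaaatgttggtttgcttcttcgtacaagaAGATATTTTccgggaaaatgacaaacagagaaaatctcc
AT1G42430: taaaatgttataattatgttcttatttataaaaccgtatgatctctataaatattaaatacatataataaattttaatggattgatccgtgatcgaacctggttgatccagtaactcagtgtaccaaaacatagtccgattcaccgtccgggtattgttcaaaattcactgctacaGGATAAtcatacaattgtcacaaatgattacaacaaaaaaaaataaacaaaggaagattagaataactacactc
SBE2.1: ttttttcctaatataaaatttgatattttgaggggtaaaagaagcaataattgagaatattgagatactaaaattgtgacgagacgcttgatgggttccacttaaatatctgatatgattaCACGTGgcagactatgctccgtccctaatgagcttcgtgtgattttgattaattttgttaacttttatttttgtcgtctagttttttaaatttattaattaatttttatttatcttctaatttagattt
PHS1: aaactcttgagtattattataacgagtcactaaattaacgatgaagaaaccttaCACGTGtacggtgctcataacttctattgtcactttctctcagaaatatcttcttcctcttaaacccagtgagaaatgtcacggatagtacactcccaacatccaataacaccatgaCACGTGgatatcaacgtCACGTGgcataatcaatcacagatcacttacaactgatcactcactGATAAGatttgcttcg
The capitals are a sugar-repressive element (TTATCC, here as GGATAA) and a pair of site II elements (TGGGCC) in APL3, a site II element in GBSS1, an evening element (AAAATATCT, here as AGATATTTT) in ISA3, a sugar-repressive element in AT1G42430, a G-box (CACGTG) in SBE2.1, and 3 G-boxes and an I-box (GATAAG) in PHS1. Counted from -1 for the base just before the gene, the ISA3 match begins at -39 and the APL3 site II elements at -112 and -93.

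Library totals ran between 7706957 and 14696645 reads. The summed level of 6 leaf genes of photosynthesis was 40836 to 64067 CPM (the count scaled to a common library size, with TMM factors) over the 12 libraries, and none of them was at 0. The summed level of 8 root genes was 11.4 to 28.5 CPM in the 9 inhibitor libraries and 22.8 to 40.9 CPM in mock. Of these root genes, EXPA7 and MRO were at 0 in every AZD8055 library, MRO with KU63794 and EXPA7 with TORIN1. None was at 0 throughout mock. The summed level of 5 seed storage genes varied widely within the inhibitor groups, at 0 to 147 CPM with AZD8055, 1.02 to 186 CPM with KU63794 and 0.687 to 161 CPM with TORIN1, against 34.7 to 60.4 CPM in mock. Their part in the results on the starch genes was not tested. In whole shoots, a change in the number of cells of a type and a change in RNA per cell cannot be told apart.

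Most of the starch genes were higher after 8 h of TOR inhibition, among them genes of synthesis and of breakdown. With AZD8055, 30 of the 40 tested members rose and 3 fell, and with TORIN1, 31 rose and 2 fell, so that 82.5% were called in each. With KU63794, 21 rose and 2 fell, which is 57.5%. Over all genes tested, 30.5% were called with AZD8055, 25.4% with KU63794 and 20.2% with TORIN1, by edgeR's quasi-likelihood test at a Benjamini-Hochberg adjusted p below 0.05. The higher calls alone made up 14.4%, 11.1% and 9.87% of all genes, and the lower calls 16.1%, 14.3% and 10.3%. With library totals as the only scaling, 2374 genes were higher and 2001 lower with KU63794, in place of 1988 and 2567, and 1230 were higher and 2128 lower with TORIN1, in place of 1770 and 1844. The members' counts were then 27 higher and 2 lower with KU63794, and 31 and 2 with TORIN1. The median log2 fold change of the members was 0.62 with AZD8055, 0.45 with KU63794 and 0.75 with TORIN1, while over all genes it was 0.00, 0.01 and -0.01. The members together took 1.06% ± 0.0682 of all reads with AZD8055, 0.981% ± 0.0930 with KU63794 and 1.10% ± 0.0531 with TORIN1, against 0.682% ± 0.0398 in mock (SD, n = 3 each).

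With every inhibitor, 21 members were called higher, against 6.20% of all genes, and 1 was called lower, against 7.33%. Another 12 were called higher and 2 lower with some of the inhibitors, and APL2, PGM1, SS4 and BAM9 were called with none. In 25 members each of the 9 inhibitor libraries lay above each of the 3 mock libraries, which held for 11.0% of all genes, and in 2 members each lay below, which held for 13.0%. The synthesis side (17 members) had 13, 9 and 13 called higher with AZD8055, KU63794 and TORIN1, and the breakdown side (21 tested) had 16, 11 and 17. AT1G42430, called lower with every inhibitor, and AT3G55760, called higher with every inhibitor, were placed on neither side. The median log2 fold change was 0.47, 0.30 and 0.55 on the synthesis side and 0.71, 0.57 and 0.85 on the breakdown side, and the difference between the sides was not tested. BAM5 and BAM6 were too scarce in mock to pass the low-count filter on the mock libraries alone, so they had to be higher with an inhibitor to be tested. Without these genes, 28 of 38 members rose with AZD8055, 20 with KU63794 and 30 with TORIN1. The 21 and the 25 members above include BAM6, and the breakdown-side counts and medians include both BAM5 and BAM6. The 3 comparisons share the mock libraries, so they do not support each other independently.

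**Figure D1:**
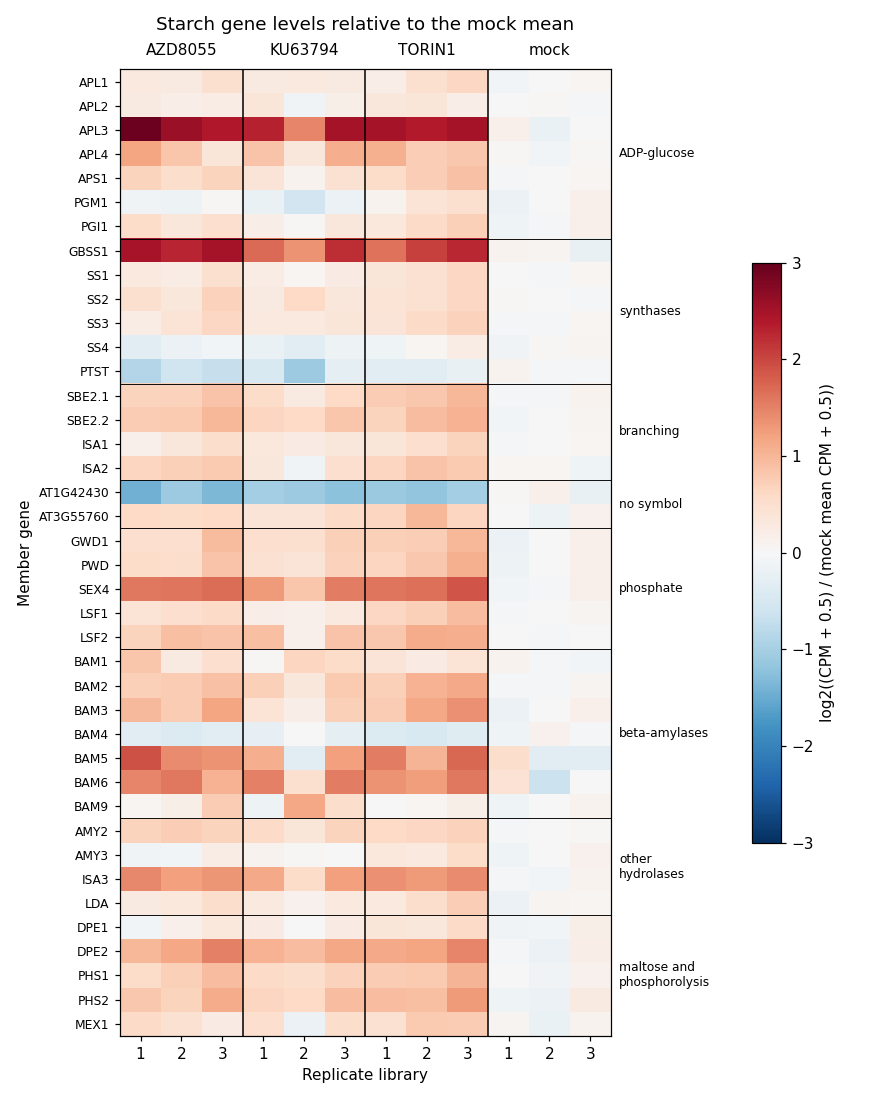
Level of each of the 40 tested members (rows, by role) in each of the 12 libraries (columns), as the log2 ratio of CPM + 0.5 to the mock mean + 0.5, with red above and blue below the mock mean. APL3, GBSS1 and SEX4 form the deepest red rows over the 9 inhibitor libraries (mean log2 ratios 2.40, 2.06 and 1.51), followed by the scarce BAM6 and BAM5 (1.31 and 1.22) and by ISA3 (1.21), AT1G42430 is blue in all 9, and the column of KU63794 replicate 2 is paler than its neighbours.

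Among the libraries treated with KU63794, replicate 2 had the lowest starch gene levels. Replicate 2 had the lowest level of its group for 32 of the 40 members, with a median log2 ratio to the mock mean of 0.28, against 0.39 and 0.54 in replicates 1 and 3. The same median was 0.52 to 0.68 in the AZD8055 libraries and 0.61 to 0.78 in the TORIN1 libraries. In the other groups replicate 1 was most often the lowest, for 18 members with AZD8055, 27 with TORIN1 and 20 in mock. How often each library was lowest over all genes is not given here. Without KU63794 replicate 2, 21 members were called higher and 1 lower with KU63794. The calls of SS3, ISA1, SS2 and PTST were then lost (adjusted p 0.0758, 0.0679, 0.0599 and 0.0609), and ISA2, BAM3 and MEX1 were gained (0.0384, 0.0286 and 0.0105).

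The enzymes that supply ADP-glucose rose in part, led by a large subunit that is scarce in mock shoots. Of 7 members, 5 were called higher with AZD8055, 3 with KU63794 and 5 with TORIN1. None was called lower. APL3 (AT4G39210), a large (regulatory) subunit of ADP-glucose pyrophosphorylase known mainly from sink tissues, had 184, 144 and 126 CPM with AZD8055, 119, 65.4 and 135 CPM with KU63794 and 134, 125 and 136 CPM with TORIN1, against 26.4, 20.5 and 23.7 CPM in mock. All 9 inhibitor libraries were above the highest mock library, and KU63794 replicate 2 was the lowest of the 9. The log2 fold changes were 2.68 ± 0.25, 2.18 ± 0.24 and 2.48 ± 0.24 (± SE) with AZD8055, KU63794 and TORIN1, which were 6.41-fold, 4.52-fold and 5.58-fold higher levels (edgeR adjusted p 1.4e-05, 6.89e-05 and 0.000116). APL3 lies on chromosome 4 at 18259547 to 18263468.

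APL4 (AT2G21590), the other large subunit known from sink tissues, had 26.5, 20.6 and 14.6 CPM with AZD8055, 20.9, 14.5 and 24.5 CPM with KU63794 and 24.4, 19.1 and 20.1 CPM with TORIN1, against 11.7, 10.7 and 11.6 CPM in mock. The groups did not overlap, though AZD8055 replicate 3 and KU63794 replicate 2 came near the mock range. Relative to mock, the log2 fold changes were 0.86 ± 0.22, 0.81 ± 0.22 and 0.90 ± 0.22 (edgeR adjusted p 0.00892, 0.0139 and 0.0103), and the KU63794 call was lost at adjusted p 0.0533 without mock replicate 2 and 0.0624 without KU63794 replicate 3. APS1 (AT5G48300), the catalytic small subunit, had 771, 699 and 776 CPM with AZD8055, 638, 519 and 670 CPM with KU63794 and 715, 813 and 886 CPM with TORIN1, against 467, 483 and 504 CPM in mock. Every inhibitor library again exceeded mock, with log2 fold changes of 0.63 ± 0.12, 0.33 ± 0.12 and 0.73 ± 0.12 (adjusted p 0.00091, 0.0499 and 0.00073). The KU63794 value lay at the threshold and missed it at adjusted p 0.0623 with no low-count filter, 0.149 without mock replicate 1, 0.119 without mock replicate 2, 0.0875 without mock replicate 3, 0.141 without KU63794 replicate 1 and 0.187 without KU63794 replicate 3.

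APL1 (AT5G19220), the main large subunit of leaves, averaged 1059 ± 88.0 CPM with AZD8055, 1004 ± 8.86 CPM with KU63794 and 1123 ± 162 CPM with TORIN1, against 827 ± 44.9 CPM in mock (SD, n = 3 each). It was called with AZD8055 (log2 fold change 0.36 ± 0.12, adjusted p 0.0306) and TORIN1 (0.44 ± 0.12, 0.0152) and missed the threshold with KU63794 (0.28 ± 0.12, 0.0947), where it passed at adjusted p 0.0491 with upper-quartile scaling, 0.00768 with library totals only, 0.0216 with DESeq2 and 0.0261 with 2 groups only. The AZD8055 and TORIN1 calls did not hold with single libraries left out, at adjusted p 0.114 without mock replicate 1, 0.0761 without mock replicate 2, 0.0541 without mock replicate 3 and 0.109 without AZD8055 replicate 3 for AZD8055, and 0.0704 without mock replicate 1, 0.0519 without mock replicate 2, 0.0566 without TORIN1 replicate 2 and 0.0743 without TORIN1 replicate 3 for TORIN1. A long non-coding RNA, AT5G19221, covers 2386 bases of the APL1 locus on the other strand and averaged 102, 89.3 and 104 CPM with AZD8055, KU63794 and TORIN1, against 79.0 CPM in mock. Whether the authors' counting used strand is not given in the sources used here, so the 2 genes may share reads. Of the 41 members, 15 overlap another annotated gene in RefSeq, 9 of them by over 100 bases.

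PGI1 (AT4G24620), the plastid phosphoglucose isomerase that feeds the pathway, rose with AZD8055 (0.47 ± 0.12, adjusted p 0.00947) and TORIN1 (0.55 ± 0.12, 0.00605), and its value with KU63794 was 0.20 ± 0.12 (0.271). The AZD8055 call was lost at adjusted p 0.0504 without mock replicate 1. APL2 (AT1G27680), a further large subunit, had values of 0.16 to 0.30 that did not pass, or adjusted p 0.0184 with 2 groups only for TORIN1. PGM1 (AT5G51820), the plastid phosphoglucomutase without which leaves make almost no starch, had 513, 497 and 567 CPM with AZD8055, 486, 372 and 494 CPM with KU63794 and 598, 735 and 770.1 CPM with TORIN1, against 488, 563 and 613 CPM in mock. Each KU63794 library was below the mock mean of 555 CPM and each TORIN1 library above it, while the ranges of all groups overlapped mock. Log2 fold changes came to -0.08 ± 0.13, -0.30 ± 0.13 and 0.34 ± 0.13, and none passed the test against mock (adjusted p 0.71, 0.121 and 0.0919). The TORIN1 difference passed at adjusted p 0.0465 with 2 groups only and 0.0377 without TORIN1 replicate 1.

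Among the starch synthases, the amylose enzyme GBSS1 rose far more than the 4 soluble synthases. Of the 6 members that extend chains or assist this, 4 were called higher with AZD8055, 3 with KU63794 and 4 with TORIN1. PTST was called lower with AZD8055 and KU63794. GBSS1 (AT1G32900), the granule-bound starch synthase, had 561, 488 and 571 CPM with AZD8055, 327, 257 and 464 CPM with KU63794 and 312, 417 and 485 CPM with TORIN1, against 108, 106 and 86.04 CPM in mock. Even the lowest inhibitor library, KU63794 replicate 2, stood well above the highest mock library. In the fit, log2 fold changes over mock were 2.43 ± 0.21, 1.80 ± 0.21 and 2.02 ± 0.21, or 5.40-fold, 3.49-fold and 4.05-fold (edgeR adjusted p 4.69e-06, 4.16e-05 and 8.08e-05).

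SS2 (AT3G01180), a soluble synthase of intermediate chains, had 57.2, 52.4 and 66.4 CPM with AZD8055, 50.02, 62.3 and 52.2 CPM with KU63794 and 54.9, 56.6 and 63.1 CPM with TORIN1, against 42.03, 41.1 and 40.4 CPM in mock. SS3 (AT1G11720), a synthase of longer chains, had 136, 156 and 180.1 CPM with AZD8055, 143, 143 and 150.2 CPM with KU63794 and 152, 175 and 190.5 CPM with TORIN1, against 114, 115 and 122 CPM in mock. For both genes the inhibitor libraries lay above mock with no overlap, by a modest margin. The fitted log2 fold changes were 0.51 ± 0.11, 0.41 ± 0.11 and 0.50 ± 0.11 for SS2 (adjusted p 0.00261, 0.012 and 0.00517) and 0.43 ± 0.11, 0.31 ± 0.11 and 0.56 ± 0.11 for SS3 (adjusted p 0.00797, 0.0456 and 0.00239). With KU63794, SS2 missed the threshold at adjusted p 0.0599 without KU63794 replicate 2, and SS3 at 0.0583 with no low-count filter, 0.131 without mock replicate 1, 0.125 without mock replicate 2, 0.0759 without mock replicate 3, 0.0848 without KU63794 replicate 1, 0.0758 without KU63794 replicate 2 and 0.124 without KU63794 replicate 3.

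SS1 (AT5G24300), the synthase of short chains, rose with AZD8055 (0.34 ± 0.10, adjusted p 0.0196) and TORIN1 (0.48 ± 0.10, 0.0044), and had 0.18 ± 0.10 (0.225) with KU63794. Its AZD8055 call was lost at adjusted p 0.0591 without mock replicate 1, 0.0733 without mock replicate 2 and 0.0812 without AZD8055 replicate 3, and with KU63794 it passed at 0.0492 with library totals only. SS4 (AT4G18240), the synthase tied to granule initiation, did not pass the test with any inhibitor, at -0.19 ± 0.11, -0.23 ± 0.11 and 0.06 ± 0.11 (adjusted p 0.198, 0.124 and 0.752). PTST (AT5G39790), which brings GBSS1 to the granule, had 9.63, 11.9 and 11.1 CPM with AZD8055, 13.1, 8.32 and 14.9 CPM with KU63794 and 14.3, 14.5 and 15.6 CPM with TORIN1, against 19.5, 17.7 and 17.3 CPM in mock. All 9 inhibitor libraries were below mock, least so with TORIN1. The log2 fold changes were -0.75 ± 0.17, -0.59 ± 0.17 and -0.30 ± 0.17 (adjusted p 0.00461, 0.02 and 0.248), so that GBSS1 rose and its targeting protein fell with AZD8055 and KU63794. The KU63794 call of PTST was lost at adjusted p 0.0803 without mock replicate 1 and 0.0609 without KU63794 replicate 2.

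**Figure D2:**
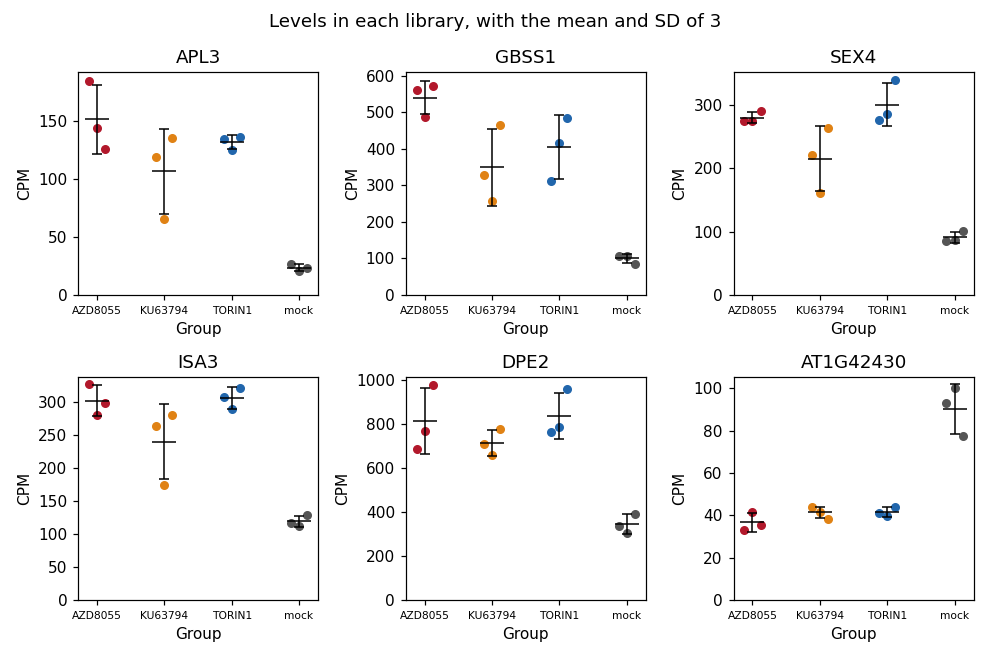
CPM of APL3, GBSS1, SEX4, ISA3, DPE2 and AT1G42430 in each of the 12 libraries (points), with the mean and SD of 3 libraries as bars, and the axes starting at 0. The first 5 genes are higher in all 9 inhibitor libraries than in mock, AT1G42430 is lower in all 9, and KU63794 replicate 2 is the lowest inhibitor library of APL3, GBSS1, SEX4, ISA3 and DPE2.

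The branching enzymes and the debranching pair that trims new chains rose together. All 4 were called higher with AZD8055 and with TORIN1, and 3 with KU63794. SBE2.1 (AT2G36390), a branching enzyme that makes the side chains of amylopectin, had 363, 370.5 and 418 CPM with AZD8055, 337, 278 and 348 CPM with KU63794 and 387, 405 and 456 CPM with TORIN1, against 222, 220.3 and 246 CPM in mock. SBE2.2 (AT5G03650), its close relative, had 605, 611 and 709.9 CPM with AZD8055, 553, 539.9 and 638 CPM with KU63794 and 563, 672 and 732 CPM with TORIN1, against 334, 353 and 379 CPM in mock. Neither gene's inhibitor libraries overlapped mock. Relative to mock, the log2 fold changes were 0.74 ± 0.11, 0.49 ± 0.11 and 0.86 ± 0.11 for SBE2.1 (edgeR adjusted p 0.000154, 0.00445 and 0.000173) and 0.85 ± 0.12, 0.70 ± 0.12 and 0.88 ± 0.12 for SBE2.2 (adjusted p 9.12e-05, 0.000551 and 0.000236).

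ISA1 (AT2G39930), an isoamylase that removes misplaced branches, had 128, 144 and 166 CPM with AZD8055, 142, 136 and 144 CPM with KU63794 and 148, 163 and 183 CPM with TORIN1, against 109, 115 and 119 CPM in mock. The inhibitor libraries were above mock, with AZD8055 replicate 1 nearest to it. Log2 fold changes came to 0.35 ± 0.10, 0.30 ± 0.10 and 0.53 ± 0.10 (adjusted p 0.019, 0.0483 and 0.00282). The AZD8055 call was lost at adjusted p 0.0773 without mock replicate 1, 0.0535 without mock replicate 2 and 0.0896 without AZD8055 replicate 3, and the KU63794 call at 0.0642 with no low-count filter, 0.155 without mock replicate 1, 0.111 without mock replicate 2, 0.0797 without mock replicate 3, 0.108 without KU63794 replicate 1, 0.0679 without KU63794 replicate 2 and 0.122 without KU63794 replicate 3. Its partner ISA2 (AT1G03310), a subunit without catalytic activity of its own, averaged 15.7 ± 0.803 CPM with AZD8055, 11.3 ± 2.42 CPM with KU63794 and 16.3 ± 1.16 CPM with TORIN1, against 9.35 ± 0.762 CPM in mock (SD, n = 3 each). It rose with AZD8055 (0.74 ± 0.15, adjusted p 0.00193) and TORIN1 (0.79 ± 0.15, 0.00236), and with KU63794 its value was 0.27 ± 0.15 (0.232), or adjusted p 0.0384 without KU63794 replicate 2.

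Besides PTST, the reference gives no symbol to 2 members, which are given by ID, and these moved in opposite directions. AT1G42430, on chromosome 1 at 15891281 to 15894576, had 33.1, 41.8 and 35.3 CPM with AZD8055, 44.01, 41.7 and 38.4 CPM with KU63794 and 41.03, 39.6 and 44.1 CPM with TORIN1, against 93.03, 99.9 and 77.2 CPM in mock. All 9 inhibitor libraries were below each mock library, and the 3 inhibitor groups overlapped one another. In the fit, log2 fold changes over mock were -1.30 ± 0.11, -1.12 ± 0.11 and -1.11 ± 0.11, or 0.407, 0.459 and 0.462 of the mock level (edgeR adjusted p 2.65e-06, 9.12e-06 and 3.97e-05). AT3G55760 had 22.8, 22.04 and 22.6 CPM with AZD8055, 19.4, 19.5 and 22.2 CPM with KU63794 and 23.3, 29.8 and 23.3 CPM with TORIN1, against 14.9, 13.3 and 16.2 CPM in mock, above mock in every inhibitor library. The fitted log2 fold changes were 0.61 ± 0.12, 0.47 ± 0.12 and 0.78 ± 0.12 (adjusted p 0.00168, 0.0116 and 0.000657), and the KU63794 call was lost at adjusted p 0.0597 without mock replicate 2 and 0.0534 without KU63794 replicate 3.

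The enzymes that attach and remove phosphate on the granule were all called higher with AZD8055 and TORIN1, and 4 of the 5 with KU63794. GWD1 (AT1G10760), the glucan, water dikinase that starts breakdown, had 879.9, 874 and 1188 CPM with AZD8055, 873, 855 and 1017 CPM with KU63794 and 1005, 1033 and 1232 CPM with TORIN1, against 544, 619.9 and 683 CPM in mock. PWD (AT5G26570), the dikinase that acts after it, had 361, 357 and 452 CPM with AZD8055, 342, 323 and 399 CPM with KU63794 and 389, 433 and 519 CPM with TORIN1, against 221, 245 and 277 CPM in mock. Both kinases were above mock in each of the 9 inhibitor libraries. The log2 fold changes were 0.67 ± 0.14, 0.57 ± 0.14 and 0.82 ± 0.14 for GWD1 (edgeR adjusted p 0.00236, 0.00808 and 0.00119) and 0.65 ± 0.14, 0.52 ± 0.14 and 0.85 ± 0.14 for PWD (adjusted p 0.00215, 0.0116 and 0.000751). The KU63794 call of PWD was lost at adjusted p 0.0624 without mock replicate 1 and 0.0587 without KU63794 replicate 3.

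SEX4 (AT3G52180), the main glucan phosphatase, rose most in this group and had 274, 275 and 289.6 CPM with AZD8055, 220.5, 161 and 263 CPM with KU63794 and 276, 286 and 339 CPM with TORIN1, against 85.1, 86.7 and 100.4 CPM in mock. The groups were far apart, with KU63794 replicate 2 the lowest inhibitor library. Relative to mock, the log2 fold changes were 1.62 ± 0.15, 1.25 ± 0.15 and 1.73 ± 0.15, or 3.08-fold, 2.37-fold and 3.31-fold (adjusted p 3.78e-06, 3.25e-05 and 1.83e-05). LSF2 (AT3G10940), a related phosphatase, had 46.8, 55.5 and 53.7 CPM with AZD8055, 55.03, 32.7 and 53.1 CPM with KU63794 and 51.8, 64.3 and 62.8 CPM with TORIN1, against 29.5, 28.8 and 29.7 CPM in mock, and KU63794 replicate 2 was the one inhibitor library close to mock. Log2 fold changes came to 0.82 ± 0.16, 0.68 ± 0.16 and 1.02 ± 0.16 (adjusted p 0.00165, 0.00727 and 0.000816).

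LSF1 (AT3G01510), a relative of SEX4 that binds the granule and has no known phosphatase activity of its own, had 52.6, 56.1 and 59.1 CPM with AZD8055, 45.7, 43.98 and 48.9 CPM with KU63794 and 61.3, 65.7 and 75.7 CPM with TORIN1, against 37.9, 39.1 and 41.98 CPM in mock. All inhibitor libraries exceeded mock, those with TORIN1 by most. In the fit, log2 fold changes over mock were 0.50 ± 0.10, 0.22 ± 0.10 and 0.77 ± 0.10, which passed with AZD8055 and TORIN1 (adjusted p 0.00134, 0.11 and 0.000159), and with KU63794 at 0.0397 with library totals only. LSF1 shares 343 bases on the same strand with the carbonic anhydrase gene CA1, whose level was 11108, 8695 and 11560.5 CPM with AZD8055, KU63794 and TORIN1, against 8849 CPM in mock, and whose log2 fold changes of 0.33, -0.03 and 0.39 did not pass the test (adjusted p 0.162, 0.938 and 0.128). How the authors assigned reads in such stretches is not given in the sources used here, and its part in the LSF1 values was not tested.

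The beta-amylases, which release maltose from chain ends, split by gene. Of 7 members, 5 rose and 1 fell with AZD8055, 2 rose with KU63794, and 3 rose and 1 fell with TORIN1. Without BAM5 and BAM6 (AT2G32290), the 5 others had 3 higher and 1 lower with AZD8055, 1 higher with KU63794, and 2 higher and 1 lower with TORIN1. BAM3 (AT4G17090), the main beta-amylase of leaf chloroplasts, averaged 437 ± 62.9 CPM with AZD8055, 305 ± 57.4 CPM with KU63794 and 479 ± 97.1 CPM with TORIN1, against 221 ± 25.5 CPM in mock (SD, n = 3 each). The fitted log2 fold changes were 0.99 ± 0.17, 0.46 ± 0.17 and 1.12 ± 0.17, and the KU63794 value did not pass (edgeR adjusted p 0.000585, 0.0584 and 0.000629), though it passed at adjusted p 0.0487 with RLE scaling, 0.0377 with upper-quartile scaling, 0.0102 with library totals only, 0.0248 with DESeq2, 0.0354 with 2 groups only, 0.0143 with the replicate block and 0.0286 without KU63794 replicate 2. BAM2 (AT4G00490), a plastid form, had 82.3, 85.3 and 92.4 CPM with AZD8055, 81.9, 63.8 and 86.4 CPM with KU63794 and 82.2, 103 and 110.1 CPM with TORIN1, against 48.6, 48.6 and 52.5 CPM in mock, with every inhibitor library above mock. The log2 fold changes were 0.80 ± 0.12, 0.63 ± 0.12 and 0.98 ± 0.12 (adjusted p 0.000235, 0.00166 and 0.000169). BAM6 had 3.73, 4.05 and 2.67 CPM with AZD8055, 3.83, 1.65 and 3.90 CPM with KU63794 and 3.40, 3.17 and 4.04 CPM with TORIN1, against 1.57, 0.476 and 1.04 CPM in mock, a low level at which counting error is large. Relative to mock, the log2 fold changes were 1.69 ± 0.40, 1.54 ± 0.40 and 1.73 ± 0.40 (adjusted p 0.00506, 0.0107 and 0.00718), and the KU63794 call was lost at adjusted p 0.0505 without mock replicate 2. BAM6 needed inhibitor libraries to pass the low-count filter, so its calls are not independent of that filter and add no support for a rise. AT2G32280, which covers 693 bases of BAM6 on the other strand, averaged 3.49, 2.87 and 3.27 CPM with the 3 inhibitors, against 2.93 CPM in mock, and did not pass with any of them (log2 fold changes 0.24, -0.03 and 0.15; adjusted p 0.593, 0.955 and 0.786).

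BAM4 (AT5G55700), a plastid protein without catalytic activity that is needed for normal breakdown, had 34.2, 32.3 and 33.97 CPM with AZD8055, 36.5, 43.1 and 35.2 CPM with KU63794 and 32.6, 31.3 and 33.8 CPM with TORIN1, against 39.6, 47.7 and 42.5 CPM in mock. The AZD8055 and TORIN1 libraries were below mock and the KU63794 libraries overlapped it. Log2 fold changes came to -0.37 ± 0.10, -0.18 ± 0.10 and -0.41 ± 0.10 (adjusted p 0.0136, 0.232 and 0.0117), and the call was lost at adjusted p 0.0866 without mock replicate 2 for AZD8055 and 0.0768 without mock replicate 2 and 0.0523 without TORIN1 replicate 2 for TORIN1. BAM1 (AT3G23920), a plastid form active in guard cells and under stress, was called with AZD8055, at 0.55 ± 0.16, 0.44 ± 0.16 and 0.34 ± 0.16 (adjusted p 0.0157, 0.0513 and 0.143). The AZD8055 call of BAM1 was lost at adjusted p 0.0548 without mock replicate 2, 0.0576 without mock replicate 3 and 0.0693 without AZD8055 replicate 1, and with KU63794 it passed at 0.0429 with RLE scaling, 0.0368 with upper-quartile scaling, 0.0216 with library totals only, 0.0326 with DESeq2 and 0.00623 without KU63794 replicate 1. With TORIN1 BAM1 passed at 0.00764 with 2 groups only.

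BAM5 (AT4G15210), a cytosolic form, was near the detection limit, with 22, 12 and 13 reads with AZD8055, 11, 0 and 12 reads with KU63794 and 14, 7 and 21 reads with TORIN1, against 6, 0 and 0 reads in mock. It passed the low-count filter through the inhibitor libraries alone. It was called with AZD8055 (adjusted p 0.0307), and its fitted fold change depends on how counts of 0 are treated. That call was lost at adjusted p 0.105 without mock replicate 2, 0.09 without mock replicate 3 and 0.0843 without AZD8055 replicate 1, and with TORIN1 BAM5 passed at adjusted p 0.038 with DESeq2, 0.0415 with the replicate block and 0.0274 without mock replicate 1. BAM9 (AT5G18670), a form without catalytic activity, varied between replicates, at 57.99 ± 16.3 CPM with AZD8055, 68.7 ± 30.8 CPM with KU63794 and 47.2 ± 3.36 CPM with TORIN1, against 44.7 ± 3.49 CPM in mock (SD, n = 3 each), and passed with none. With KU63794 it passed at adjusted p 0.0105 without KU63794 replicate 1.

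Among the remaining hydrolases, ISA3 rose most. Of 4 tested genes, 3 were called higher with AZD8055, 2 with KU63794 and 4 with TORIN1. ISA3 (AT4G09020), the isoamylase that removes branches during breakdown, had 327, 281 and 298 CPM with AZD8055, 264, 175 and 280.5 CPM with KU63794 and 308, 289 and 322 CPM with TORIN1, against 117, 113 and 129 CPM in mock. Its 9 inhibitor libraries lay above mock, with KU63794 replicate 2 the lowest of them. In the fit, log2 fold changes over mock were 1.33 ± 0.14, 1.00 ± 0.14 and 1.36 ± 0.14, or 2.52-fold, 2.00-fold and 2.56-fold (edgeR adjusted p 1.2e-05, 0.000152 and 5.36e-05). LDA (AT5G04360), the limit dextrinase that shares this task, averaged 105 ± 9.85 CPM with AZD8055, 96.1 ± 6.42 CPM with KU63794 and 118 ± 18.8 CPM with TORIN1, against 81.4 ± 7.67 CPM in mock (SD, n = 3 each). The fitted log2 fold changes were 0.37 ± 0.12, 0.24 ± 0.12 and 0.54 ± 0.12 (adjusted p 0.0264, 0.157 and 0.00522), and its AZD8055 call was lost at adjusted p 0.125 without mock replicate 1 and 0.103 without AZD8055 replicate 3, while with KU63794 it passed at 0.0377 with library totals only.

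AMY2 (AT1G76130), an alpha-amylase outside the plastid, had 34.3, 35.6 and 34.3 CPM with AZD8055, 31.6, 27.4 and 33.8 CPM with KU63794 and 32.5, 32.96 and 34.4 CPM with TORIN1, against 20.8, 21.1 and 21.8 CPM in mock. These tight groups did not overlap mock. The log2 fold changes were 0.71 ± 0.10, 0.54 ± 0.10 and 0.65 ± 0.10 (adjusted p 7.72e-05, 0.000813 and 0.000479). AMY3 (AT1G69830), the plastid alpha-amylase, passed with TORIN1 at 0.02 ± 0.11, 0.05 ± 0.11 and 0.39 ± 0.11 (adjusted p 0.929, 0.776 and 0.0216), and that call was lost at adjusted p 0.101 without mock replicate 1, 0.0697 without mock replicate 2 and 0.101 without TORIN1 replicate 3.

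The genes that use maltose and short glucans were called higher in part with AZD8055 and KU63794 and in full with TORIN1. Of 5 members, 3 were called higher with AZD8055, 3 with KU63794 and 5 with TORIN1. DPE2 (AT2G40840), the cytosolic transglucosidase that takes up exported maltose, had 690.3, 772 and 981 CPM with AZD8055, 711, 659 and 778 CPM with KU63794 and 765, 789 and 959 CPM with TORIN1, against 337, 305 and 394 CPM in mock. The lowest inhibitor library stood well above the highest mock library. Relative to mock, the log2 fold changes were 1.24 ± 0.15, 1.05 ± 0.15 and 1.28 ± 0.15, or 2.36-fold, 2.07-fold and 2.43-fold (edgeR adjusted p 2.35e-05, 0.000107 and 9.35e-05). PHS1 (AT3G29320), the plastid glucan phosphorylase, had 463, 516 and 602 CPM with AZD8055, 472, 451 and 512 CPM with KU63794 and 531, 539 and 634 CPM with TORIN1, against 311, 291 and 342 CPM in mock. PHS2 (AT3G46970), the cytosolic phosphorylase, had 614, 560.4 and 767 CPM with AZD8055, 548, 529 and 666 CPM with KU63794 and 672, 654 and 853 CPM with TORIN1, against 321, 310.2 and 424 CPM in mock. Mock replicate 3 was the highest mock library of both phosphorylases, and each inhibitor library still exceeded it. Log2 fold changes came to 0.74 ± 0.12, 0.60 ± 0.12 and 0.85 ± 0.12 for PHS1 (adjusted p 0.000254, 0.00155 and 0.000284) and 0.88 ± 0.16, 0.73 ± 0.16 and 1.05 ± 0.16 for PHS2 (adjusted p 0.0007, 0.00338 and 0.000517).

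DPE1 (AT5G64860), the plastid disproportionating enzyme that recycles maltotriose, passed with TORIN1, at 0.14 ± 0.12, 0.17 ± 0.12 and 0.43 ± 0.12 (adjusted p 0.423, 0.346 and 0.019), and its call was lost at adjusted p 0.0852 without mock replicate 1, 0.08 without mock replicate 2 and 0.093 without TORIN1 replicate 3. MEX1 (AT5G17520), the exporter that carries maltose out of the plastid, averaged 53.6 ± 6.20 CPM with AZD8055, 49.7 ± 12.7 CPM with KU63794 and 63.6 ± 7.81 CPM with TORIN1, against 39.6 ± 4.45 CPM in mock (SD, n = 3 each). In the fit, log2 fold changes over mock were 0.44 ± 0.17, 0.33 ± 0.17 and 0.68 ± 0.17 (adjusted p 0.0706, 0.188 and 0.0126). The TORIN1 call of MEX1 was lost at adjusted p 0.0593 without mock replicate 2 and 0.0527 without TORIN1 replicate 3, and with KU63794 MEX1 passed at 0.0105 without KU63794 replicate 2. With AZD8055 it passed at 0.0224 with 2 groups only.

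**Figure D3:**
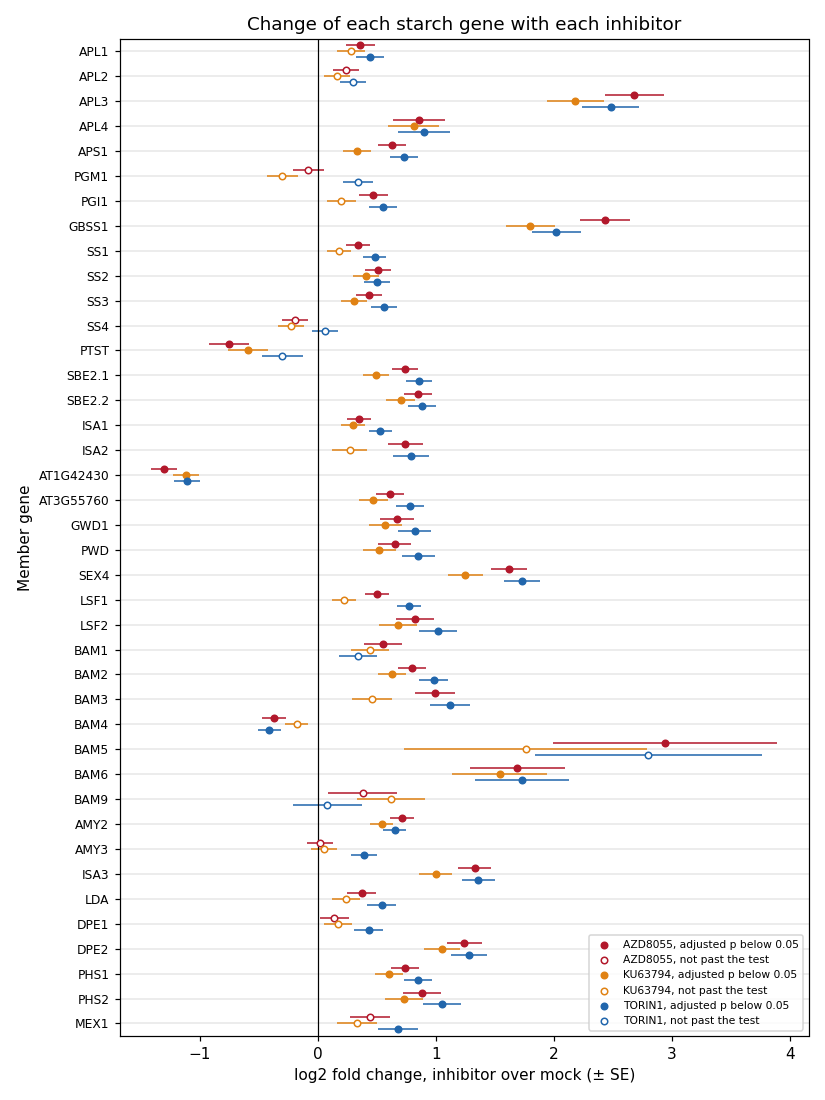
Log2 fold change (points) and its SE (bars) of each of the 40 tested members with AZD8055, KU63794 and TORIN1 over mock, filled where the edgeR adjusted p was below 0.05. APL3 and GBSS1 lie near or beyond 2 with every inhibitor except GBSS1 with KU63794 at 1.80, AT1G42430 lies below -1 with all 3, and most KU63794 points lie left of the TORIN1 points.

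Per kilobase of coding sequence, the make-up of several enzyme families differed between inhibitor-treated and mock shoots, as a description with no test. Each share is taken over the member genes only, such as GBSS1 and SS1 to SS4 for the starch synthases. Related genes outside the members, such as BAM7, BAM8 and BE1, are not counted. APL3 was 12.01% ± 2.58 of the large-subunit level with AZD8055, 9.12% ± 2.89 with KU63794 and 10.1% ± 1.36 with TORIN1, against 2.65% ± 0.425 in mock (SD, n = 3 each). APL1 remained the main large subunit at 83.6%, 86.3% and 85.4%, against 92.7% in mock. GBSS1 made up 51.4% ± 2.09, 42.1% ± 6.17 and 41.5% ± 3.08 of the starch synthase level with AZD8055, KU63794 and TORIN1, against 18.9% ± 2.36 in mock, where SS1 was the highest with 42.5% ± 1.51. SS4 made up 8.90%, 11.2% and 11.4%, against 20.2% in mock.

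Among the debranching enzymes, ISA3 took 55.8% ± 4.01, 51.3% ± 5.17 and 53.4% ± 2.79 of the CPM per kilobase with AZD8055, KU63794 and TORIN1, against 39.4% ± 1.73 in mock. BAM4 took 5.09%, 7.22% and 4.75% of the beta-amylase level, against 11.0% in mock, and BAM3 took 63.8%, 54.9% and 66.4%, against 54.5% in mock. SEX4 took 72.6%, 69.7% and 70.8% of the level of SEX4, LSF1 and LSF2 together, against 58.3% in mock. Of the branching pair, SBE2.2 made up 64.1% ± 0.345, 65.7% ± 1.94 and 62.6% ± 1.61 with AZD8055, KU63794 and TORIN1, against 62.3% ± 0.747 in mock.

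In CPM per kilobase, APL1 and APS1 ranked highest and second of the 41 members in every group, at 675 ± 56.1 and 479 ± 27.6 with AZD8055 and at 527 ± 28.6 and 310 ± 11.9 in mock. GBSS1 ranked 3 with AZD8055, 9 with KU63794 and 11 with TORIN1, against 19 in mock. Its 191 ± 57.5 with KU63794 and 221 ± 47.4 with TORIN1 overlapped the values of several neighbours in that order, such as GWD1 (218 ± 21.1 and 259.6 ± 29.5). AT1G42430 ranked 30, 29 and 28 with the inhibitors, against 15 in mock.

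**Figure D4:**
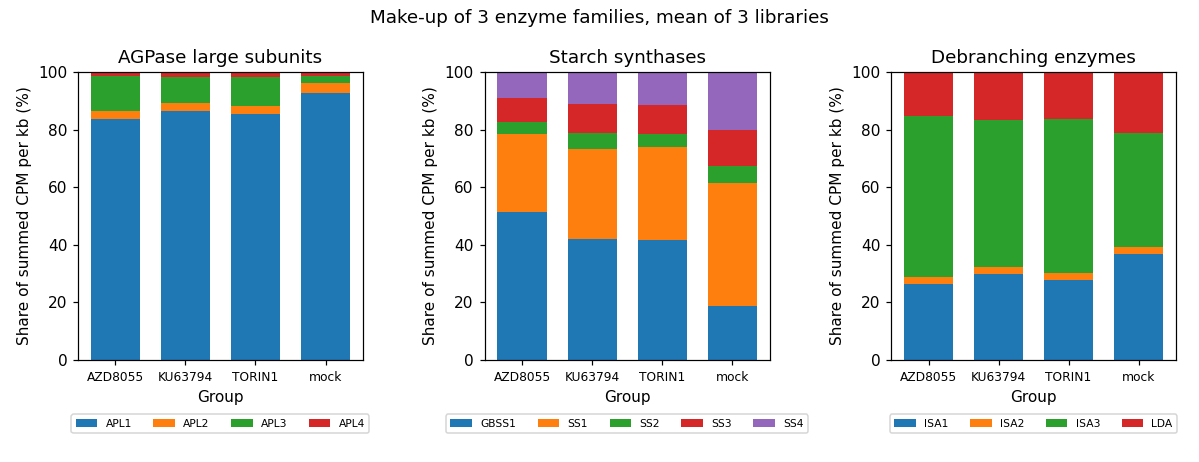
Share of the summed CPM per kilobase of coding sequence taken by each member gene of 3 families (stacked bars, mean of 3 libraries) with AZD8055, KU63794, TORIN1 and in mock. The APL3, GBSS1 and ISA3 segments are larger in the inhibitor bars (12.01%, 51.4% and 55.8% with AZD8055) than in mock (2.65%, 18.9% and 39.4%).

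Between inhibitors, few starch genes differed, at doses that were not matched. No member was called between AZD8055 and KU63794, with a median log2 difference of 0.15, or between AZD8055 and TORIN1, with -0.11, by edgeR. These medians were small and moved with the processing, to 0.06 and -0.06 with library totals only, and within 0.10 to 0.23 and -0.19 to -0.04 with 1 library left out. The lowest of the first came without AZD8055 replicate 3 or KU63794 replicate 2 and the highest without KU63794 replicate 3, and the second was -0.19 without TORIN1 replicate 1, -0.17 without AZD8055 replicate 3 and -0.04 without TORIN1 replicate 3. Over all genes these comparisons called 0.00558% and 1.80%, and those lower with AZD8055 than with TORIN1 were 1.30%. At an unadjusted p below 0.05, 10 members were higher with AZD8055 than with KU63794 and 6 lower than with TORIN1. The share of all genes at that cut-off is not given here, so these counts have no background beside them. limma voom called none in either comparison, and DESeq2 called 1, AMY3, lower with AZD8055 than with TORIN1 (-0.36, adjusted p 0.0369). Over all genes DESeq2 called 438 of 14298 lower with AZD8055 than with TORIN1. The differences that missed the threshold do not show that the compounds acted alike: GBSS1, for example, was 0.63 ± 0.20 higher with AZD8055 than with KU63794 (adjusted p 0.534).

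Between KU63794 and TORIN1, 2 members were called, both lower with KU63794, where 2.82% of all genes were called and 2.21% were called lower. PGM1 had 486, 372 and 494 CPM with KU63794, against 598, 735 and 770.1 CPM with TORIN1, a log2 difference of -0.64 ± 0.13 (edgeR adjusted p 0.0302). LSF1 had 45.7, 43.98 and 48.9 CPM with KU63794, against 61.3, 65.7 and 75.7 CPM with TORIN1, a log2 difference of -0.55 ± 0.10 (adjusted p 0.0204). For neither gene did the 2 groups overlap. LSF1 shares bases with CA1, as given above, and the part of shared reads in its difference was not tested. Over all genes, 108 were higher and 397 lower with KU63794, in place of which upper-quartile scaling gave 67 and 130 and library totals alone 67 and 26, with a median shift of 0.13 over all genes. The PGM1 call was lost at adjusted p 0.0583 with library totals only, 0.0731 with 2 groups only, 0.0501 without KU63794 replicate 1, 0.138 without KU63794 replicate 2, 0.135 without TORIN1 replicate 2 and 0.143 without TORIN1 replicate 3. The LSF1 call was lost at 0.0607 with library totals only, 0.0827 without KU63794 replicate 2, 0.0772 without TORIN1 replicate 2 and 0.106 without TORIN1 replicate 3. Only 3 of the 40 members were higher with KU63794 than with TORIN1, with a median log2 difference of -0.30, against -0.01 over all genes. The members' median was -0.15 with library totals only, where that of all genes was 0.13, and -0.36 to -0.20 with 1 library left out. At an unadjusted p below 0.05 by edgeR, 21 members were lower with KU63794 and 1 higher. The share of all genes of either sign, or at that cut-off, is not given here. Without KU63794 replicate 2 no member was called here, nor without TORIN1 replicate 2 or 3, while the log2 differences were then -0.52, -0.60 and -0.57 for PGM1 and -0.52, -0.57 and -0.46 for LSF1. Over all genes the same settings called 26, 5 and 2. DESeq2 called BAM3, SBE2.1, SEX4, APS1, ISA2 and SS1 lower with KU63794 as well (adjusted p 0.00792 to 0.0472). Over all genes DESeq2 also called more, with 830 of 12497 lower, against 397 of 17933 by edgeR.

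A second list held 28 genes around the pathway: other starch-related genes, the cytosolic route to sucrose, and plastid transport. With AZD8055, 9 rose and 1 fell, with KU63794, 5 rose and 2 fell, and with TORIN1, 9 rose and 1 fell, so 35.7%, 25.0% and 35.7% were called, against 30.5%, 25.4% and 20.2% of all genes. The risen genes include GPT2 with each inhibitor, which had to be higher with an inhibitor to be tested. Counts without GPT2 are not given here. Of the 13 genes of the cytosolic route, 6 rose with AZD8055, 3 with KU63794 and 7 with TORIN1, none fell, and 10, 10 and 13 had positive values.

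The genes of this list called with every inhibitor were GWD2, BE1, SUS1, SPS1F, HXK1 and GPT2. GWD2, a relative of the glucan, water dikinases (AT4G24450, for which RefSeq lists ATGWD2 as a synonym), had 37.5, 35.7 and 31.6 CPM with AZD8055, 31.6, 15.4 and 35.2 CPM with KU63794 and 32.9, 31.8 and 36.8 CPM with TORIN1, against 9.93, 7.80 and 8.34 CPM in mock, with log2 fold changes of 1.99 ± 0.25, 1.64 ± 0.25 and 1.95 ± 0.25 (edgeR adjusted p 7.59e-05, 0.000389 and 0.000287). BE1, annotated as a branching enzyme and needed for embryo development, had 11.3, 11.3 and 7.31 CPM with AZD8055, 12.2, 9.35 and 13.1 CPM with KU63794 and 12.8, 14.95 and 14.3 CPM with TORIN1, against 25.4, 28.6 and 30.9 CPM in mock. It fell in all 9 libraries relative to mock, by log2 fold changes of -1.51 ± 0.17, -1.29 ± 0.17 and -1.01 ± 0.16 (adjusted p 1.53e-05, 5.74e-05 and 0.000821), while the branching enzymes SBE2.1 and SBE2.2 rose.

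SPS1F, a sucrose-phosphate synthase that commits carbon to sucrose, had 340.3, 300.2 and 368 CPM with AZD8055, 248, 281 and 277 CPM with KU63794 and 269, 304 and 345 CPM with TORIN1, against 139.7, 138 and 158 CPM in mock. SUS1, a sucrose synthase that cleaves sucrose, had 39.1, 36.5 and 40.5 CPM with AZD8055, 30.5, 33.1 and 35.2 CPM with KU63794 and 38.99, 33.98 and 39.1 CPM with TORIN1, against 20.2, 18.1 and 18.6 CPM in mock. HXK1, the glucose-sensing hexokinase, had 82.2, 75.7 and 80.4 CPM with AZD8055, 69.3, 61.2 and 70.4 CPM with KU63794 and 72.4, 85.9 and 90.5 CPM with TORIN1, against 48.5, 49.1 and 56.97 CPM in mock. For all 3 genes the inhibitor libraries lay above mock. The fitted log2 fold changes were 1.21 ± 0.11, 0.89 ± 0.11 and 1.08 ± 0.11 for SPS1F (adjusted p 4.28e-06, 5.73e-05 and 4.99e-05), 1.03 ± 0.10, 0.79 ± 0.10 and 0.98 ± 0.10 for SUS1 (adjusted p 5.92e-06, 5.46e-05 and 4.56e-05) and 0.63 ± 0.10, 0.38 ± 0.10 and 0.69 ± 0.10 for HXK1 (adjusted p 0.000335, 0.0129 and 0.000459). GPT2, a glucose 6-phosphate importer of the plastid that can feed starch synthesis, had 56.6, 45.5 and 41.9 CPM with AZD8055, 29.7, 13.6 and 33.6 CPM with KU63794 and 28.6, 32.9 and 32.8 CPM with TORIN1, against 0.821, 2.19 and 0 CPM in mock. In reads, mock had 12, 23 and 0, so that GPT2 passed the low-count filter through the inhibitor libraries. Its calls with each inhibitor are not independent of that filter and add no support for a rise. Its fitted fold changes, which depend on how such low counts are treated, are not given.

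Upstream of the 41 members, 8 short motifs were searched on both strands of the same 250-base windows, and each share is set beside that of 27438 windows of protein-coding genes. The G-box CACGTG was in 12 members (29.3%), against 6.49% of all windows. Those members were PGI1, SS1, SS3, SS4, PTST, SBE2.1, LSF1, BAM2, BAM9, DPE1, PHS1 and PHS2, and 5 of them were among the 21 called higher with every inhibitor. The windows of SS3, SS4, PTST, LSF1 and PHS2 contain part of another annotated gene. APL3, GBSS1, SEX4, ISA3 and DPE2 had no CACGTG in this window, so the letters were not shared by the members with the largest increases.

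The evening element AAAATATCT was in PGM1, PWD and ISA3 (7.32%, against 2.36% of all windows), and the CCA1-binding site AAAAATCT in SBE2.2, ISA1, AMY1 and DPE2 (9.76%, against 6.69%). The site II element TGGGCC was in 8 members (19.5%, against 13.7%), the I-box GATAAG and the sugar-repressive element TTATCC in 6 members each (14.6%, against 12.3% and 12.5%), the telo-box AAACCCTA in 2 (4.88%, against 4.49%) and the W-box TTGACC in 2 (4.88%, against 12.2%). The I-box and the reverse of the sugar-repressive element can overlap, since both hold GATAA. These matches are letters in a window and were not tested for binding.

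In the authors' deposited tables of called genes, 33 of the 41 members are among the 5308 genes listed for AZD8055, 26 among the 4558 for KU63794 and 33 among the 3696 for TORIN1. The counts cover 33602 genes, and how many of them the authors tested is not given here. The tables rest on the same libraries, so they give no independent support. These tables give mock over inhibitor, and turned round, 30, 24 and 31 of the listed members are higher with the inhibitor. The authors' deposited table for KU63794 lists 3 members that did not pass here, BAM1, BAM3 and APL1. The authors' deposited combined list, whose 4398 genes each stand in 2 or 3 of those tables, holds 32 members, 24 of them from all 3 tables and 8 from 2, and 29 have positive values and 3 negative ones.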

How the data were processed

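Gene-level counts of 12 libraries in 4 groups of 3 were used as the authors deposited them, and taken as raw. DESeq2 1.18.1, StringTie 1.3.3 and the TAIR10 build are named in the submitters' processing notes, with no roles. No aligner, strand setting or rule for shared reads is given in these sources. The normalized counts, a signal scaled by the authors, were proportional to the counts within each library and served for that check only. The authors' deposited tables also hold a log2 fold change, a p-value and a Wald score per gene.

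All 12 libraries entered 1 edgeR 4.0.16 fit (R 4.3.3) with group as its term, TMM scaling, filterByExpr and robust moderation. Quasi-likelihood tests were two-sided and adjusted by the Benjamini-Hochberg method over 17933 genes. Each SE follows from the test, as the size of the log2 fold change over the root of F. Levels are CPM after TMM. The steps were tested on simulated data. Alternatives were limma voom 3.58.1, DESeq2 1.42.0, other scalings and filters, and each library left out. Replicates differed by more than counting noise, so none was a copy of another.

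Members, roles and the second gene list were chosen with earlier results of these data known, and support nothing by their choice. Values per library are given for members called with all 3 inhibitors, for the 3 largest changes per direction and comparison, and for members called between inhibitors. Names are symbols or synonyms in RefSeq's TAIR10.1 annotation, which gives 38 members a symbol, and PTST is named from its RefSeq product. Coordinates and sequence come from TAIR10.1, and the files hold no coordinates. The motif windows are the 250 bases before each gene start, in place of the windows planned for a promoter table not used here. Coding length is that of the RefSeq coding sequence. Same-numbered libraries did not deviate together (18 pairs, r -0.268 to 0.228), so the numbers were not taken as pairs. Library totals, 7706957 to 14696645, set a floor of 3 counts at 0.205 to 0.391 CPM, which covers counting error only.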

Additional observations from a re-analysis of the deposited data

Results flagged for a closer look

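PGM1 and LSF1 were the members that differed between inhibitors by a test of the difference itself. PGM1 was lower with KU63794 than with TORIN1 by a log2 difference of -0.64 (edgeR adjusted p 0.0302), with KU63794 libraries of 486, 372 and 494 CPM, against 598, 735 and 770.1 CPM with TORIN1. LSF1 was lower with KU63794 than with TORIN1 by -0.55 (edgeR adjusted p 0.0204), with 45.7, 44.0 and 48.9 CPM, against 61.3, 65.7 and 75.7 CPM. LSF1 shares 343 bases on the same strand with CA1, which averaged 8695 CPM with KU63794 and 11560.5 CPM with TORIN1. The part of shared reads in the LSF1 difference was not tested. The doses were 20 µM and 10 µM. Without KU63794 replicate 2, PGM1 and LSF1 had log2 differences of -0.52 and -0.52 (adjusted p 0.138 and 0.0827), without TORIN1 replicate 2 they had -0.60 and -0.57 (0.135 and 0.0772), and without TORIN1 replicate 3 they had -0.57 and -0.46 (0.143 and 0.106). The differences thus kept their sign and most of their size while the calls were lost, and calls over all genes fell to 26, 5 and 2 in these settings, against 505 with all libraries. Both calls were also lost with library totals only (edgeR adjusted p 0.0583 for PGM1 and 0.0607 for LSF1). That of PGM1 was lost with 2 groups only (0.0731) and without KU63794 replicate 1 (0.0501) as well.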

How the results depend on the processing

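Each comparison was recomputed under 9 alternatives of scaling, filter, tool, samples or block and with each of 12 libraries left out. Of 1828 values of single members (all against mock, and PGM1 and LSF1 between KU63794 and TORIN1), 1718 stayed on their side of the threshold with their sign, 74 lost a call, 30 gained one and 6 turned sign. Between inhibitors, another 16 calls were gained, 15 of them between KU63794 and TORIN1. The 6 were not called: AMY3 was -0.01 with library totals only (AZD8055 over mock), and with 1 library left out it ran from -0.10 to 0.08 for AZD8055 (-0.05 without mock replicate 1) and from -0.01 to 0.12 for KU63794. SS4 was -0.02 with library totals only and ran from -0.03 to 0.15 with 1 library left out (TORIN1 over mock). The cause was not tested. Calls held in every alternative for 25 of 33 members with AZD8055, 14 of 23 with KU63794 and 28 of 33 with TORIN1. Those that held with all 3 inhibitors in the 21 settings were 14 members: APL3, GBSS1, SBE2.1, SBE2.2, GWD1, SEX4, LSF2, BAM2, AMY2, ISA3, DPE2, PHS1, PHS2 and, lower, AT1G42430.

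With 1 library left out, members called higher and lower numbered 25 to 30 and 2 to 3 with AZD8055, 15 to 21 and 1 to 2 with KU63794, and 27 to 32 and 1 to 2 with TORIN1. Between KU63794 and TORIN1, 0 to 6 were called lower, and 0 were called between AZD8055 and either. Between AZD8055 and TORIN1, DESeq2 called 1 member lower. Between KU63794 and TORIN1, 2 members were lower in the reported edgeR fit, and 0 were with library totals only, 8 with DESeq2, 1 with 2 groups only and 5 with the replicate block. Over all genes those fits called 397, 26, 830, 130 and 359 lower, in the same order. The replicate number as a block, which the data gave no ground for (5 of 12 libraries correlated best with their own number), left 30 members higher with AZD8055 and gave 22 with KU63794 and 32 with TORIN1.

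Over all genes, calls between inhibitors depended on the setting: 1 between AZD8055 and KU63794 (0 to 14 under the alternatives), 323 between AZD8055 and TORIN1 (11 to 593) and 505 between KU63794 and TORIN1 (2 to 935 with 1 library left out, 93 to 1134 otherwise). Against mock, TORIN1 called 3614 genes, but 2214 without mock replicate 2. Counts were low for BAM5, BAM6 and AMY1, where depth limits what can be detected.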
